A study of Homo sapiens with 6 samples.

Results

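Fibulins, latent TGF-beta binding proteins and fibrillins are secreted glycoproteins of the extracellular matrix that build or decorate microfibrils, the thin fibres on which elastin is laid down. The genes described here are a group of 10, FBLN1, FBLN2, FBLN5, EFEMP1, EFEMP2, LTBP1, LTBP2, LTBP3, FBN1 and FBN2, out of 35820 genes in the deposited tables. They were chosen by symbol with their values known, for the rise of FBLN2 against the fall of LTBP1 in counts and RPKM of TOP3B KO against WT cells. All 10 were found by symbol and all 10 had enough counts to be tested. The group was thus selected on that comparison, and its values for these genes are a description and carry no p-value.

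The cells were HT1080, an established human fibrosarcoma line. Total RNA depleted of ribosomal RNA was sequenced from 3 libraries of TOP3B knockout (TOP3B KO) cells and 3 libraries of wild-type (WT) cells. The knockout was made with CRISPR and a guide against exon 2 of TOP3B, and the design text names 1 line, E2-2, so the comparison is of that line with WT cells. No treatment is given for either group. TOP3B is a topoisomerase that acts on DNA and on RNA, and the study asked how it affects R-loops and transcription. The design text names the WT cells once as HCT116, a colon line, whereas the sample labels name HT1080 for all 6 libraries.

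Fibrillins polymerise into microfibrils, and mutations in FBN1 cause Marfan syndrome. Latent TGF-beta binding proteins (LTBPs) hold newly made TGF-beta in an inactive complex and tether it to fibrillin and fibronectin, apart from LTBP2, which does not bind the latent growth factor. Fibulins share a C-terminal module and bridge matrix proteins, and some of them guide the crosslinking of elastin. These genes are typical products of fibroblasts and other mesenchymal cells.

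The library totals lay between 18501898 and 20340136 estimated counts in TOP3B KO and between 17919106 and 20475280 in WT. TOP3B KO replicate 3 lay apart from every other library. The SD of log2 differences over 6544 genes was 0.623 and 0.599 between it and TOP3B KO replicates 1 and 2. The SD was 0.238 between those replicates and 0.268 to 0.327 within WT. Against the WT libraries it was 0.454 to 0.489 for TOP3B KO replicates 1 and 2 and 0.682 to 0.734 for replicate 3. Mitochondrially encoded transcripts took 5.70% of the counts of TOP3B KO replicate 3 and 8.23% to 10.0% of the counts of the other 5 libraries. Fold changes of the 10 genes and counts of the gene lists are therefore given with and without this library. TOP3B itself had 407, 383 and 361 counts in TOP3B KO libraries, against 536, 376 and 469 in WT libraries, and did not pass the test (edgeR adjusted p = 0.342). A small edit can leave the transcript in place, so this gene-level count does not check the labels. The labels do not say that replicates were separate cultures, so the spread may be technical.

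Markers of a mesenchymal line were present in part. VIM was at 11373 to 11712 CPM in TOP3B KO and 11310 to 12352 CPM in WT, where CPM is the count scaled to library size with TMM factors. Of 12 mesenchymal markers 9 averaged at least 1 CPM, but the fibroblast marker THY1 was at 0 in TOP3B KO and reached only 0.0569 CPM in WT. NT5E reached at most 0.344 CPM and PDGFRA at most 0.443 CPM in any library. The 12 summed to 16048 to 16830 CPM in TOP3B KO and 18340 to 19761 CPM in WT. Within that sum VIM overlapped between the groups, while SPARC was at 3235 to 3632 CPM in TOP3B KO and 5530 to 5866 CPM in WT. Of 11 colon epithelial markers KRT20, CDX2, CEACAM5 and MUC2 had 0 counts in every library. The list summed to 108 to 129 CPM in TOP3B KO and 105 to 117 CPM in WT, most of it KRT8. The endothelial list summed to at most 0.819 CPM in TOP3B KO and 3.25 CPM in WT. The leukocyte list summed to 3.79 to 13.1 CPM in TOP3B KO and 10.2 to 15.3 CPM in WT, the smooth muscle list to 0.512 to 18.6 CPM and 17.5 to 26.5 CPM, and the glial and neuronal list to 14.1 to 17.3 CPM and 17.4 to 28.8 CPM. Whether these differences play a part in the results was not tested. In bulk RNA, fewer cells of a kind and less RNA per cell cannot be told apart.

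Promoter windows of FBLN2 and LTBP1 are shown because these genes gave the family its contrast. The printed windows are some of those annotated for each gene, and they differ in base composition. RefSeq gives, for GRCh38.p14, windows of 300 bases, from 250 before to 50 after an annotated start. It held 14 such windows for 9 of the 10 genes, and none was matched for EFEMP1. Capitals mark matches on either strand to 6 motifs, the GC box GGGCGG, the cyclic AMP response element (CRE) TGACGTCA, the AP-1 motif TGANTCA, the E-box CACGTG, the TATA box TATAAA and the TEAD motif CATTCC. The printed windows lie on the plus strand. They are chr3:13548875-13549174 for the upstream start of FBLN2, chr2:32946703-32947002 for the upstream start of LTBP1 and chr2:33134119-33134418 for an internal start of LTBP1.
FBLN2: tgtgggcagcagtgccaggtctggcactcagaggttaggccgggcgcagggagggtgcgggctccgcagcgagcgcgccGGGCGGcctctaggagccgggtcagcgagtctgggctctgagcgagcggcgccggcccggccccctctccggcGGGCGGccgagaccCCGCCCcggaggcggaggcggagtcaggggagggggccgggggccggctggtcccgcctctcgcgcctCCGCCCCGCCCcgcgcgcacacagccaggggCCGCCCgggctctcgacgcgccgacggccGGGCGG
LTBP1 upstream: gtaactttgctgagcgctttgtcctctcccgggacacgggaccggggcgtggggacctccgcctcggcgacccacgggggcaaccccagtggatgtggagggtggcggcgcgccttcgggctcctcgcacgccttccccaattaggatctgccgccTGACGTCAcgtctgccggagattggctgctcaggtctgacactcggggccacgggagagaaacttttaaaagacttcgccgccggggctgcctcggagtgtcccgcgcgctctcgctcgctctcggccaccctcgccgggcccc
LTBP1 internal: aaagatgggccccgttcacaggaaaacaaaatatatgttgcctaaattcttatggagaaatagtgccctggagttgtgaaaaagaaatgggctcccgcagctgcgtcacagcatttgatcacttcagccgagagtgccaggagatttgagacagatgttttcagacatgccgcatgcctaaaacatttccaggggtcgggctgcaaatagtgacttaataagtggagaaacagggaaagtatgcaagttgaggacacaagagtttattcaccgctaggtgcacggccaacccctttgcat
The printed FBLN2 window was 81.0% G or C and held 43 CpG pairs, more CpG than 95.0% of all 35116 RefSeq windows. It held 7 GC box matches, some of them overlapping, where 45.0% of all windows held at least 1. An internal FBLN2 window that is not printed was 63.3% G or C with 12 CpG pairs. That window had more CpG than 46.9% of all windows and held none of the 6 motifs. The upstream LTBP1 window was 68.7% G or C with 33 CpG pairs, more CpG than 82.8% of all windows. It held no GC box match and a single CRE match, a motif found in 1.85% of all windows. The internal LTBP1 window was 46.3% G or C with 8 CpG pairs and held none of the 6 motifs. A match is a run of letters, not a known binding site, and gene-level counts do not say which start was used.

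Of the 10 genes, 3 passed an adjusted p of 0.05, FBLN2 as a rise and EFEMP1 and LTBP1 as falls. Over all 13965 genes tested the share was 7.84%, 3.21% higher and 4.63% lower in TOP3B KO. DESeq2 called 15.7% of all genes, and 24.7% had an unadjusted p under 0.05 in edgeR. Since this contrast chose the genes, nothing is read from their count. Their median log2 fold change was 0.14, against 0.05 over all genes tested, and -0.37 against 0.01 without TOP3B KO replicate 3. Without that library 5 of the 10 passed, with LTBP2 added as a fall and LTBP3 as a rise, where 13.2% of all genes passed. In 5 of the 10 genes the TOP3B KO libraries all lay on 1 side of the WT libraries, as in 33.6% of all genes tested.

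**Figure D1:**
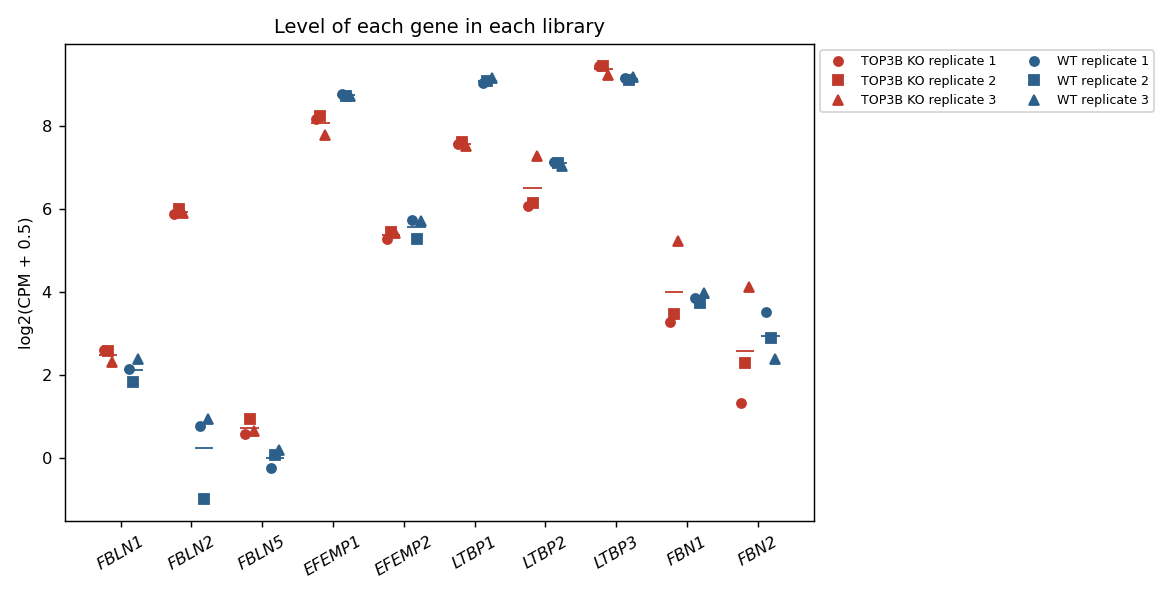
Level of each of the 10 genes in each library, as log2(CPM + 0.5), with TOP3B KO in red left of WT in blue, symbols for replicates and a bar at the mean. FBLN2 separates widely, at 58.5 to 63.8 CPM in TOP3B KO against 0 to 1.43 CPM in WT, while LTBP2, FBN1 and FBN2 have their highest value in TOP3B KO replicate 3.

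FBLN2 encodes fibulin-2, which binds fibronectin, nidogen and proteoglycans and bridges basement membrane to the matrix around it. It had 1189, 1268 and 1173 counts in TOP3B KO libraries, against 21, 0 and 29 in WT libraries. These were 58.5, 63.8 and 60.02 CPM in TOP3B KO and 1.20, 0 and 1.43 CPM in WT. The gene was thus near the lower limit of the counts in WT and uniformly present in TOP3B KO, with no overlap. Its log2 fold change of 6.12 ± 0.76 (SE), and 6.12 ± 0.70 without TOP3B KO replicate 3, lay between 5.52 and 6.70 when each library was left out in turn. Its size depends on the few WT counts, and limma-voom gave 7.44. FBLN2 spans 13549131 to 13638422 on the plus strand of chromosome 3 (GRCh38, GENCODE v29).

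EFEMP1 encodes fibulin-3, a fibulin of fibroblasts and of the eye. Its libraries held 290, 303 and 221 CPM in TOP3B KO, against 438, 427 and 425 CPM in WT. All 3 TOP3B KO values were below all WT values, and the lowest was in replicate 3. The log2 fold change was -0.66 ± 0.13 (SE), or -0.54 ± 0.05 without TOP3B KO replicate 3. The fall passed the threshold without that library and lost it without any of the other 5, at log2 fold changes of -0.75 to -0.66. The gene occupies 55865967 to 55924139 on chromosome 2, minus strand.

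EFEMP2 encodes fibulin-4, which helps the crosslinking enzyme LOX reach elastin. It was at 38.3, 43.3 and 42.8 CPM in TOP3B KO and at 52.6, 38.1 and 52.1 CPM in WT. The groups overlapped through WT replicate 2, and at -0.20 ± 0.16 (log2, SE) the difference did not reach the threshold, nor at -0.23 ± 0.17 without TOP3B KO replicate 3. EFEMP2 overlaps MUS81 on the opposite strand in GENCODE v29. The library kit keeps strand, but no source used here says whether the counting did, so reads of the pair may be mixed.

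FBLN1 and FBLN5 were weak. FBLN1, a fibulin of blood and matrix, had 113, 108 and 87 counts in TOP3B KO and 69, 60 and 96 in WT, and the groups overlapped. At 0.40 ± 0.26 (log2, SE) the difference missed the threshold, as it did at 0.49 ± 0.26 without TOP3B KO replicate 3. FBLN5, which binds elastin and integrins, had 20, 28 and 21 counts in TOP3B KO, against 6, 11 and 13 in WT. The groups did not overlap, but at 1.16 ± 0.41 (log2, SE) the difference missed the threshold at these counts. Without TOP3B KO replicate 3 it was 1.20 ± 0.49 and missed it too.

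Of 5 family genes outside the 10, LTBP4 rose and FBLN7 and HMCN2 did not pass, with or without TOP3B KO replicate 3, while HMCN1 and FBN3 had too few counts to be tested. LTBP4 is described with its relatives below. FBLN7 was at 2.41, 2.16 and 4.20 CPM in TOP3B KO and 1.82, 1.88 and 1.38 CPM in WT. HMCN2, a giant relative of the fibulins, was at 6.54, 4.88 and 12.9 CPM in TOP3B KO and 5.07, 5.48 and 4.53 CPM in WT, with its highest value in TOP3B KO replicate 3.

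LTBP1 carries latent TGF-beta to the matrix. It was at 192, 196 and 185 CPM in TOP3B KO, against 531, 545 and 573 CPM in WT. Each group was tight and the gap between them was wide, with the highest TOP3B KO library far below the lowest WT library. The log2 fold change was -1.53 ± 0.08 (SE), a 2.88-fold lower level, and stayed between -1.56 and -1.50 with each library left out. Without TOP3B KO replicate 3 it was -1.51 ± 0.06. LTBP1 is the longest of the 10 genes and runs from 32946972 to 33399509 on the plus strand of chromosome 2.

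LTBP2, a microfibril protein that competes with LTBP1 for fibrillin, gave 66.6, 71.1 and 157 CPM in TOP3B KO and 141, 139 and 133 CPM in WT. TOP3B KO replicates 1 and 2 were well below every WT library and replicate 3 was above them all. The log2 fold change was therefore -0.48 ± 0.32 (SE) with all libraries, which did not pass, and -1.004 ± 0.07 without replicate 3, which did. In the library that stands apart LTBP2 was 2.28 times the mean of the other TOP3B KO libraries.

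LTBP3, which helps TGF-beta to be secreted, had the highest level per length of the LTBPs in both groups. It was at 703, 706 and 607 CPM in TOP3B KO and at 574, 553 and 581 CPM in WT, with no overlap. The log2 fold change was 0.24 ± 0.08 (SE) and did not pass, and was 0.30 ± 0.05 without TOP3B KO replicate 3, where it passed. LTBP4, which also ties TGF-beta to elastic fibres, rose 1.65-fold. It was at 156, 170 and 170 CPM in TOP3B KO and 106, 87.6 and 108 CPM in WT. Its log2 fold change was 0.72 ± 0.11 (SE, edgeR adjusted p = 0.0141). LTBP4 passed in 2 of the 6 fits without 1 library, without TOP3B KO replicate 1 or 3, and its edgeR adjusted p reached 0.0633 in the other 4.

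FBN1 encodes fibrillin-1, the main fibrillin of adult tissue. It had 187, 212 and 731 counts in TOP3B KO libraries and 246, 253 and 310 in WT libraries. FBN2, the fibrillin of developing tissue, had 41, 87 and 332 counts in TOP3B KO and 193, 136 and 97 in WT. For both genes TOP3B KO replicates 1 and 2 lay below the WT libraries and replicate 3 lay above them. The log2 fold change of FBN1 was 0.44 ± 0.53 (SE) with all libraries and -0.51 ± 0.16 without replicate 3. That of FBN2 was 0.05 ± 0.75 (SE) and -1.25 ± 0.49 in the same order. FBN2 overlaps SLC27A6 on the opposite strand. None of these 4 values passed, and the sign of both fibrillins turned when TOP3B KO replicate 3 was left out. The sign of FBN2 was unsettled with that library kept as well. Its log2 fold change was -0.41 with limma-voom and -0.03 with limma-trend on log2(RPKM + 0.1). It was -0.009 without WT replicate 2 and -0.20 without WT replicate 3.

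**Figure D2:**
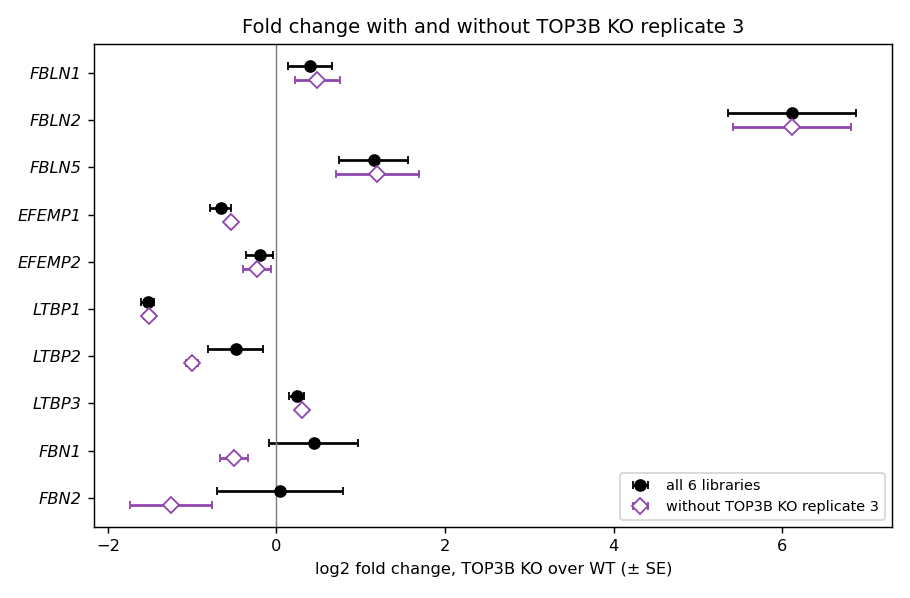
Fold change of each gene, TOP3B KO over WT on the log2 scale with its SE, from all 6 libraries (filled) and without TOP3B KO replicate 3 (open). FBLN2 at 6.12 and LTBP1 at -1.53 hardly move, LTBP2 shifts to -1.004, and FBN1 and FBN2 change sign to -0.51 and -1.25.

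The excess in TOP3B KO replicate 3 set LTBP2, FBN1 and FBN2 apart from the other 7 genes. The level in this library was 3.76 times the mean of TOP3B KO replicates 1 and 2 for FBN1 and 5.31 times for FBN2. A ratio of at least 2 was reached by these 3 of 10 genes and by 7.39% of all genes tested. In FBLN2 and LTBP1 the ratio was 0.981 and 0.952.

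Compared per unit of length, the 10 genes covered several orders of magnitude. In deposited RPKM (reads scaled to gene length and library size), LTBP3 led at 86.6 ± 4.68 in TOP3B KO and 70.6 ± 2.78 in WT (SD, n = 3 each). EFEMP2 followed in TOP3B KO at 15.5 ± 1.31 and EFEMP1 was at 14.3 ± 1.92, with ranges that overlapped. In WT EFEMP1 followed LTBP3 at 21.8 ± 0.435, separate from EFEMP2 at 17.1 ± 3.13. LTBP1 was at 1.31 ± 0.0178 RPKM in TOP3B KO and 3.62 ± 0.178 RPKM in WT. LTBP2 was at 1.45 ± 0.803 RPKM in TOP3B KO and 1.93 ± 0.0450 RPKM in WT.

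FBLN2 moved furthest in this order. It held rank 4 in TOP3B KO at 1.63 ± 0.0796 RPKM, where its range overlapped that of LTBP2 but not that of EFEMP1. It held rank 9 in WT at 0.0227 ± 0.0199 RPKM, where its range overlapped that of FBLN5, the last gene in both groups. FBN1, FBLN1 and FBN2 stood between 0.0868 and 0.255 RPKM in TOP3B KO and between 0.0788 and 0.177 RPKM in WT. Each of these 3 overlapped its neighbour in the order among them, in both groups.

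The length behind the deposited RPKM was not that of a spliced transcript. It was 148710 bases for LTBP1 and 38032 bases for FBLN2, against 6333 and 4318 exonic bases in their longest GENCODE v29 transcripts. For FBLN1, FBLN2, EFEMP1, EFEMP2, LTBP1 and LTBP2 it was 0.998 to 1.00 times the mean genomic span of the gene's transcripts. It departed from that span in the other 4 genes, at 1.46 times for FBLN5, 1.16 times for FBN1, 1.102 times for LTBP3 and 0.542 times for FBN2. RPKM on such lengths ranks genes with long introns low. Per kilobase of exons, the TOP3B KO order was led by LTBP3 at 151 ± 12.7 CPM, EFEMP1 at 89.8 ± 14.5 CPM and LTBP1 at 30.1 ± 0.936 CPM (SD, n = 3). In WT, EFEMP1 led at 142 ± 2.25 CPM per kilobase, followed by LTBP3 at 128 ± 3.35 and LTBP1 at 86.8 ± 3.40. FBLN2 held rank 5 in TOP3B KO at 14.1 ± 0.638 and last in WT at 0.202 ± 0.177 on this scale. Reads within introns, if counted, would inflate this scale for long genes, which was not tested.

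**Figure D3:**
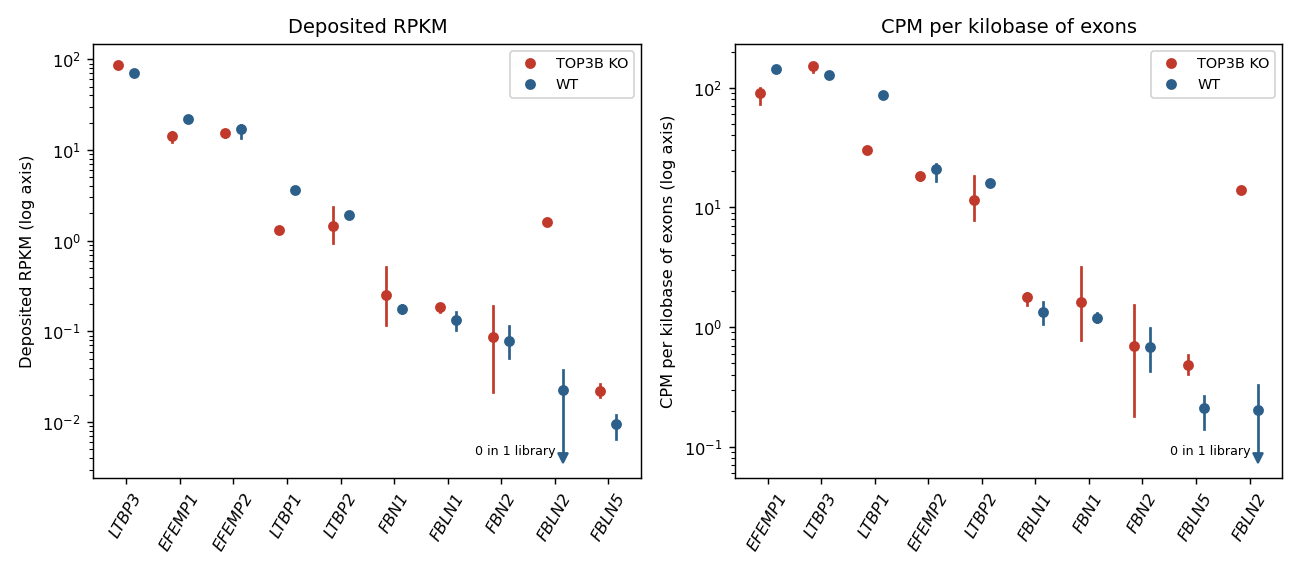
Mean level per unit of length (point) and range over 3 libraries (line) on log axes, in deposited RPKM and in CPM per kilobase of exons, with genes in WT order and TOP3B KO left of WT. FBLN2 stands at 1.63 RPKM in TOP3B KO and 0.0227 RPKM in WT, where the arrow marks a library at 0, and LTBP1 moves up the order when exon length is used.

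The makeup of the LTBP family differed between the groups. Per kilobase of exons, LTBP1 made up 13.3%, 13.4% and 13.4% of the 4 LTBP genes in TOP3B KO libraries, against 33.5%, 35.3% and 35.1% in WT libraries. LTBP3 made up 69.6%, 68.5% and 62.7% in TOP3B KO and 51.6%, 51.0% and 50.7% in WT. LTBP4 took 13.7%, 14.5% and 15.5% in TOP3B KO, against 8.39%, 7.13% and 8.28% in WT. The summed LTBP level was 227, 232 and 218 CPM per kilobase of exons in TOP3B KO, against 250, 244 and 258 in WT. In RPKM the same sum ran the other way, at 108, 110 and 104 in TOP3B KO and 87.5, 81.9 and 89.9 in WT, a scale on which LTBP1 has little weight. On the RPKM scale LTBP1 was 1.20% to 1.27% of the family in TOP3B KO and 3.996% to 4.32% in WT. LTBP3 was 78.3% to 82.7% in TOP3B KO and 81.2% to 82.5% in WT on that scale. The groups thus overlapped for LTBP3, and its higher share in TOP3B KO was seen only per kilobase of exons.

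Among 6 fibulin genes, FBLN2 contributed 10.5%, 10.8% and 12.8% per kilobase of exons in TOP3B KO libraries and 0.163%, 0% and 0.199% in WT libraries. EFEMP1 contributed 74.3%, 73.2% and 67.3% in TOP3B KO, against 85.1%, 88.4% and 84.7% in WT. The fibulin sum was 129, 137 and 109 CPM per kilobase in TOP3B KO and 170, 160 and 166 in WT, with no overlap. These shares are made from the values that chose the genes and are given without a test.

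The surroundings of FBLN2 and LTBP1 are given as a description. Within 1 Mb of FBLN2, 11 other genes were tested and 1 passed in edgeR, XPC, beside 7.84% of all genes. Of the 11, 3 had an unadjusted p under 0.05 and 2 were called by DESeq2. XPC encodes a damage sensor of nucleotide excision repair. It rose 2.05-fold, at 46.4, 48.3 and 67.9 CPM in TOP3B KO and 28.99, 27.5 and 22.9 CPM in WT (edgeR adjusted p = 0.0242). The call for XPC held only without TOP3B KO replicate 3 among the 6 fits without 1 library, and its edgeR adjusted p reached 0.104. The median log2 fold change of the 11 was 0.59, and 0.43 without TOP3B KO replicate 3, beside 0.05 over 771 genes of chromosome 3. Within 1 Mb of LTBP1, 9 other genes were tested and 0 passed in edgeR, with 2 at an unadjusted p under 0.05 and 1 called by DESeq2, beside 24.7% and 15.7% of all genes. Their median was 0.17 with all libraries and -0.09 without TOP3B KO replicate 3, so its sign rests on that library, beside 0.08 over 898 genes of chromosome 2 with all libraries. Without that library SLC30A6 passed as a fall (edgeR adjusted p = 0.0230), where its edgeR adjusted p with all libraries was 0.0522. The spans used are those of GRCh38, whereas the submitters' notes name hg19.

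**Figure D4:**
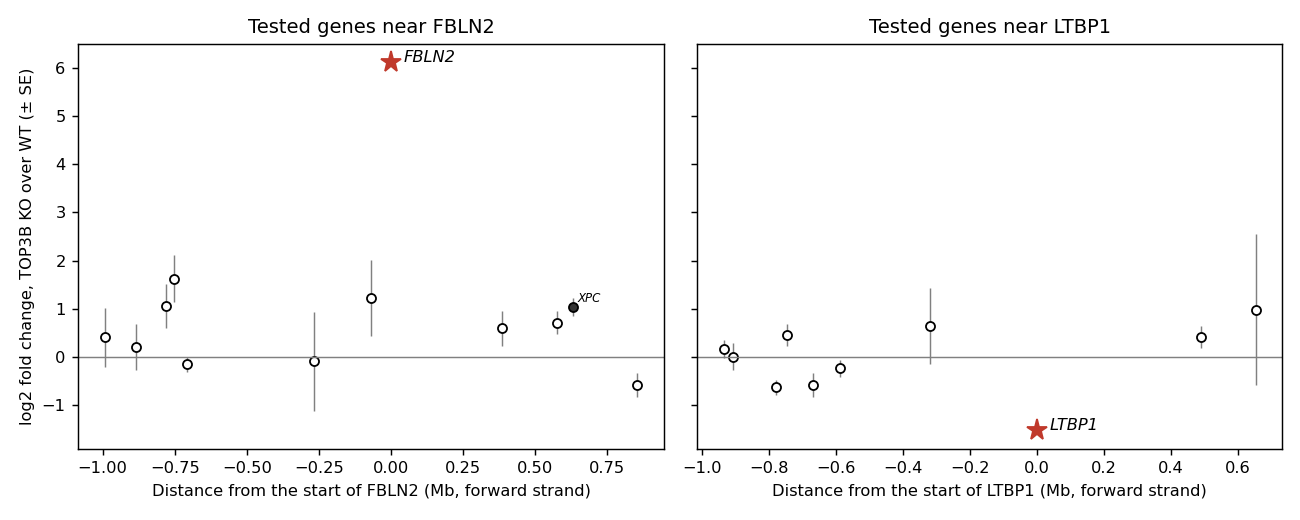
Log2 fold change, TOP3B KO over WT with its SE, of tested genes within 1 Mb of FBLN2 and of LTBP1, by distance of their starts. The star marks FBLN2 at 6.12 or LTBP1 at -1.53, and XPC at 1.03, the only filled and named neighbour, passed the test.

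The profiles most like that of FBLN2 over the 6 libraries belonged to ZNF558, DCC and TMEM132D-AS1. Likeness was the Euclidean distance between log2(CPM + 0.5) profiles centred on their means, and was 1.34, 1.79 and 1.93 for these genes. ZNF558 was at 28.5 to 30.7 CPM in TOP3B KO and 0.152 to 0.344 CPM in WT. TMEM132D-AS1 is an antisense transcript, which cannot be told apart from its partner if the counting ignored strand. For LTBP1 the nearest were SLC12A8, PLEKHG4B and N4BP2L2, at distances of 0.12, 0.20 and 0.21. SLC12A8 was at 7.18, 7.65 and 6.35 CPM in TOP3B KO and 20.3, 20.8 and 21.7 CPM in WT.

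Among 80 tested genes of 8 lists of relatives and partners, 3 rose and 18 fell, or 26.3% beside 7.84% of all genes tested. The lists were chosen with earlier results of these data known, so nothing is read from this share. No test compares the lists with other genes. In the list of latent TGF-beta storage and release, 4 of 16 tested genes fell and none rose, with a median log2 fold change of -0.64 beside 0.05 over all genes. Without TOP3B KO replicate 3 there were 6 falls, with ITGB1 and ITGB5 added, and the median was -0.51. Without that library 13.2% of all genes tested passed, and their median was 0.01. FURIN, the protease that cleaves the TGF-beta precursor and profibrillin, fell 1.81-fold. It was at 464, 482 and 429 CPM in TOP3B KO and 820, 857 and 807 CPM in WT (edgeR adjusted p = 0.00338). MMP2, a gelatinase, fell 1.78-fold to 191 ± 8.92 CPM in TOP3B KO, against 340.1 ± 19.8 CPM in WT (SD, n = 3 each, edgeR adjusted p = 0.00466). BMP1, which cleaves procollagen and LTBP1, fell 1.70-fold to 62.0 ± 7.41 CPM in TOP3B KO, against 105 ± 1.69 CPM in WT (SD, n = 3 each, edgeR adjusted p = 0.0141). The other, LRRC32, a membrane anchor of latent TGF-beta that is named here outside the naming rule, was at 0.197 to 0.461 CPM in TOP3B KO and 1.37 to 1.57 CPM in WT. FURIN and MMP2 passed with each library left out. BMP1 passed in 2 such fits, without TOP3B KO replicate 1 or 3, and its edgeR adjusted p reached 0.0717 in the others. LRRC32 passed only without TOP3B KO replicate 3, and its edgeR adjusted p reached 0.129.

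The ligands themselves did not pass. TGFB1 was at 2.07, 2.16 and 4.76 CPM in TOP3B KO and 2.51, 4.01 and 2.51 CPM in WT. TGFB2 was at 32.6, 26.5 and 8.39 CPM in TOP3B KO and 22.8, 52.5 and 52.7 CPM in WT. Both are named for their role, after their values were seen. In edgeR 7.84% of all genes tested passed, and 13.2% without TOP3B KO replicate 3. None of 4 tested BMP and GDF ligands held by fibrillin passed in edgeR, with or without that library. Of these 4 ligands, 1 had an unadjusted p under 0.05 and 0 were called by DESeq2, beside 24.7% and 15.7% of all genes tested. The most abundant were INHBA, an activin chain, at 51.0 ± 7.75 CPM in TOP3B KO and 43.4 ± 10.9 CPM in WT, and GDF11 at 15.5 ± 6.71 and 22.0 ± 0.647 CPM (SD, n = 3 each).

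Receptors and targets of TGF-beta were lower in several cases. Over all genes tested 4.63% fell and 3.21% rose, with a median log2 fold change of 0.05. Of 15 tested genes in this list 6 fell and none rose, with a median log2 fold change of -0.58. Without TOP3B KO replicate 3 there were 7 falls, with SMAD7 added, and the median was -0.64. Without that library 13.2% of all genes tested passed in either direction, and their median was 0.01. TGFBR1, the signalling type I receptor, fell 2.11-fold, at 100.3, 110 and 84.6 CPM in TOP3B KO and 200.1, 204 and 218 CPM in WT (edgeR adjusted p = 0.00562). PMEPA1, a target that feeds back on SMAD proteins, fell 2.59-fold to 51.5 ± 3.40 CPM in TOP3B KO, against 133 ± 12.2 CPM in WT (SD, n = 3 each, edgeR adjusted p = 0.00229). TGFBI, a secreted matrix protein induced by TGF-beta, fell 1.78-fold with an edgeR adjusted p of 0.0354. TAGLN, an actin-binding target, had a log2 fold change of -2.31 ± 0.16 (SE). The other fallers, TGFBR2 and TGFBR3, are named outside the rule, with log2 fold changes of -0.65 ± 0.09 and -0.83 ± 0.16 (SE). TGFBR1, PMEPA1 and TAGLN passed with each library left out, while TGFBI and TGFBR3 passed only without TOP3B KO replicate 3 and reached edgeR adjusted p of 0.133 and 0.105. TGFBR2 lost its call without any 1 WT library, with an edgeR adjusted p up to 0.0684.

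Fibulin ligands in the matrix and basement membrane moved in both directions. Over all genes tested 7.84% passed, and 13.2% without TOP3B KO replicate 3, with medians of 0.05 and 0.01 (log2). Among 15 tested ligands there were 3 falls and 1 rise. Their median was -0.03 (log2), and -0.46 without TOP3B KO replicate 3, where 3 fell and 1 rose. FN1, whose fibronectin fibrils hold LTBP1 and bind fibulins, was at 3495, 3561 and 2466 CPM in TOP3B KO and 11214, 11400 and 12630 CPM in WT, a fall of 3.70-fold (edgeR adjusted p = 0.00214). TNC, the matrix protein tenascin-C, fell 2.198-fold to 60.5 ± 10.9 CPM in TOP3B KO, against 133 ± 7.59 CPM in WT (SD, n = 3 each, edgeR adjusted p = 0.00988). NID2, a nidogen of basement membranes, fell to 2.61 ± 1.30 CPM in TOP3B KO, against 9.54 ± 1.25 CPM in WT (SD, n = 3 each, edgeR adjusted p = 0.0435). HSPG2, the proteoglycan perlecan, rose 2.43-fold, at 9.84, 11.8 and 19.4 CPM in TOP3B KO and 5.52, 5.98 and 5.41 CPM in WT (edgeR adjusted p = 0.0422). FN1 passed with each library left out. TNC lost its call only without WT replicate 2, at an edgeR adjusted p of 0.0541. NID2 and HSPG2 passed only without TOP3B KO replicate 3, with edgeR adjusted p up to 0.133 and 0.150.

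**Figure D5:**
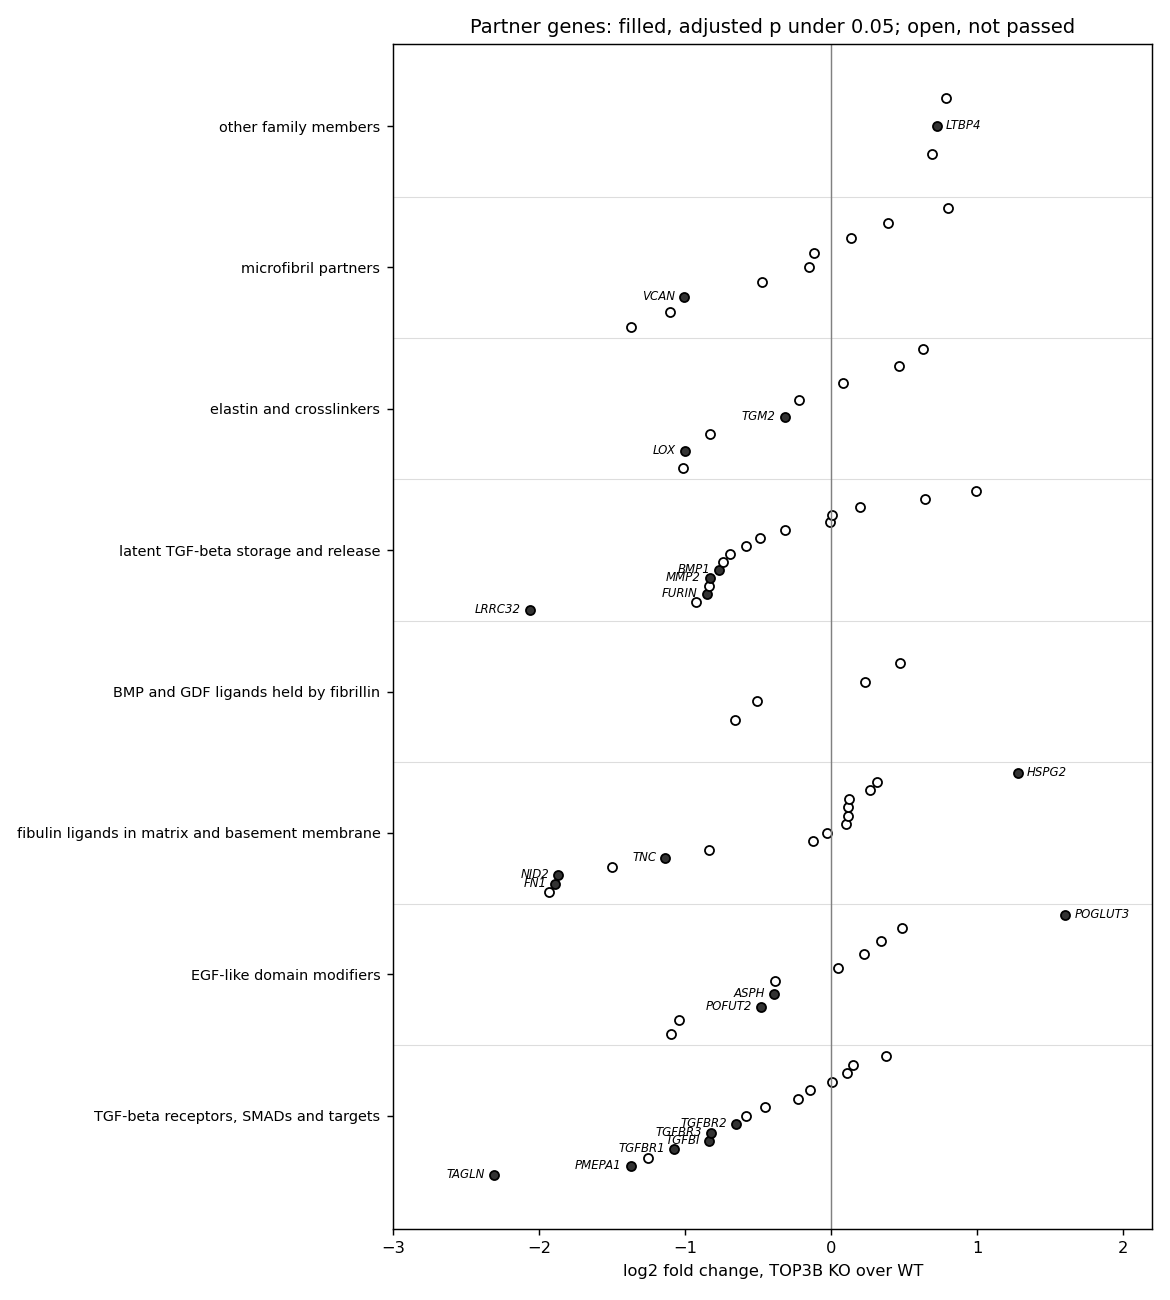
Log2 fold change, TOP3B KO over WT, of each tested gene in the 8 lists of relatives and partners, filled where the edgeR adjusted p was under 0.05. Most filled points lie left of 0, with LTBP4, HSPG2 and POGLUT3 at 0.72, 1.28 and 1.60 on the right.

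Microfibril partners and elastin crosslinkers were measured in part. Of all genes tested 7.84% passed, and 13.2% without TOP3B KO replicate 3, with medians of 0.05 and 0.01 (log2). Among 9 tested microfibril partners VCAN fell and the other 8 missed the threshold. Their median was -0.15 (log2), and -0.31 without TOP3B KO replicate 3, where ADAMTSL5 also fell and ADAMTS6 rose. VCAN, the proteoglycan versican, fell 2.01-fold, at 212, 227 and 163 CPM in TOP3B KO and 360.1, 384 and 464 CPM in WT (edgeR adjusted p = 0.0147). It passed in 3 of 6 fits without 1 library and reached an edgeR adjusted p of 0.0655 in the others, which were without WT replicates 2 and 3 and TOP3B KO replicate 1. The microfibril genes MFAP2 and MFAP4 and the elastin gene ELN had too few counts to be tested, at most 0.344 CPM in any library. Among 8 tested genes of elastin and crosslinkers LOX and TGM2 fell, and the median was -0.27. Without TOP3B KO replicate 3 LOXL3 was a further fall, for 3 in all, and the median was -0.39. LOX, which crosslinks elastin and collagen, fell 2.01-fold, at 29.6, 28.9 and 20.4 CPM in TOP3B KO and 58.8, 45.2 and 54.3 CPM in WT (edgeR adjusted p = 0.0257). TGM2, a transglutaminase, fell 1.25-fold to 514 ± 12.8 CPM in TOP3B KO, against 640.3 ± 25.8 CPM in WT (SD, n = 3 each, edgeR adjusted p = 0.0423). Both passed only without TOP3B KO replicate 3 among the fits without 1 library, with edgeR adjusted p up to 0.0982 and 0.169. TGM2 also lost its call with upper quartile scaling, library size alone, no filter on low counts or limma-trend on log2 RPKM.

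EGF-like repeats, which fill all 3 protein families, are modified by sugar transferases and a hydroxylase. Of all genes tested 7.84% passed, and 13.2% without TOP3B KO replicate 3, with medians of 0.05 and 0.01 (log2). Among 10 tested modifiers there were 1 rise and 2 falls. Their median was -0.17 (log2), and -0.08 without TOP3B KO replicate 3, where 3 fell, with EOGT added, and 1 rose. POGLUT3, which adds glucose to EGF-like repeats of fibrillins and LTBP1, rose 3.04-fold, at 29.4, 36.2 and 34.4 CPM in TOP3B KO and 9.79, 11.4 and 11.8 CPM in WT (edgeR adjusted p = 0.003997). ASPH, the hydroxylase, fell 1.31-fold to 1395 ± 49.4 CPM in TOP3B KO, against 1826 ± 30.4 CPM in WT (SD, n = 3 each, edgeR adjusted p = 0.0174). POFUT2 fell 1.40-fold (edgeR adjusted p = 0.0466), and is known to add fucose to thrombospondin repeats rather than to EGF-like repeats. POGLUT3 passed with each library left out. ASPH and POFUT2 passed only without TOP3B KO replicate 3, with edgeR adjusted p up to 0.0902 and 0.163.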

How the data were processed

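Estimated counts and RPKM values per gene and library were deposited by the authors for 3 TOP3B KO and 3 WT libraries. Salmon 1.10.1 and hg19 appear in the submitters' processing notes, without their roles. The deposited RPKM values are scaled to a gene length and to library size; the values give that length. Estimated counts are whole numbers as deposited and were used unchanged. Of 35820 entries, 1 was named differently in the tables and left out. Genes passing filterByExpr (13965) were tested with edgeR 4.0.16 in R 4.3.3 (TMM scaling, quasi-likelihood F test, 4 residual degrees of freedom), with Benjamini-Hochberg adjustment over all genes tested and a threshold of 0.05. SE values were derived from the F statistic. Alternatives used DESeq2 1.42.0, limma 3.58.1, other scalings and filters, and each library left out.

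WT labels carry replicate numbers, and TOP3B KO numbers follow the order of deposition and pair nothing. The genes and lists were chosen with earlier results of these data known. The text names all 10 genes, TOP3B, up to 4 called genes per direction and list with a mean of at least 1 CPM (without calls, the 2 most abundant), called genes near FBLN2 and LTBP1, and the 3 genes of most like profile. Any other gene was named after its values were seen. With 3 libraries per group, depth limits FBLN1, FBLN5 and WT FBLN2 most. Genes without a row in the tables were not analysed here.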

Additional observations from a re-analysis of the deposited data

How the results depend on the processing

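The direction and call of FBLN2 and LTBP1 held under each of the 16 alternatives run, and that of EFEMP1 in all but the 5 fits without TOP3B KO replicate 1 or 2 or without a WT library. The number of genes passing was 1095, and 2199 with DESeq2. With each library left out in turn it ranged from 223 to 1899, the highest without TOP3B KO replicate 3. Of the 10 genes 3 passed, with a range of 2 to 5 over the fits without 1 library. Of the partner genes 21 passed, with a range of 7 to 28 over the fits without 1 library. It was 17 with limma-trend on either log2 RPKM scale and 18 with no filter on low counts. With upper quartile scaling, library size alone or limma-voom it was 19, and with DESeq2 26. TGM2 was not alone in losing its call. The list of EGF-like domain modifiers had 2 calls rather than 3 in each setting with 17 to 19. Fibulin ligands had 3 rather than 4 with limma-voom or limma-trend. Near FBLN2 and LTBP1 1 gene passed, with a range of 0 to 2 without 1 library. It was 2 with DESeq2 size factors, limma-voom or a filter of 1 CPM in 3 libraries, and 3 with DESeq2. Ranked by RPKM, 10 genes have a place in the order. Per kilobase of exons 3 of them kept that place in TOP3B KO and 2 in WT. In RPKM itself, 4 of them kept their TOP3B KO place when TOP3B KO replicate 3 was left out. FBLN5 was not tested under the filter of 1 CPM. The log2(RPKM + 1) scale compresses low genes, and gave FBLN2 1.36. The causes were not tested. No paired analysis was possible because the TOP3B KO labels carry no replicate numbers.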
